A study of Mus musculus with 12 samples.

Results

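S100a8 and S100a9 encode the subunits of calprotectin, and their signals are described here in every mouse of a colon injury experiment. They are 2 of the 23747 genes measured, taken as all probes that the array files assign to either gene by name or by RefSeq accession, which gave 1 probe with 1 spot for each. They were selected on the treated against untreated contrasts, in which they stood out, so those changes are given as a description with no test. The comparisons between marrow donors were not used in that choice and are tested.

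Each array held RNA from the scraped colon mucosa of 1 C57BL/6 mouse, and all 12 mice were wild-type recipients of a bone marrow graft. The 4 groups of 3 mice were treated mice with marrow from Muc1 knockout donors (KO marrow), treated mice with marrow from wild-type donors (WT marrow), untreated mice with KO marrow and untreated mice with WT marrow. Treated mice were given azoxymethane (AOM, a colon carcinogen) at 12.5 mg/kg and, 5 days later, dextran sodium sulfate (DSS, which injures the colon lining) in the water at 2% for 4 days and then plain water for 14 days. That cycle was given again, then 2.5% DSS for 5 days, and the mucosa was taken 1 day later. Muc1, which encodes a membrane mucin, was lacking in the donor cells alone and was intact in the epithelium and other tissue of every recipient. The sources used here give neither the age of the mice nor how far host blood cells had been replaced. The comparison between donors therefore asks what Muc1 in marrow-derived cells does in the injured and in the uninjured mucosa.

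Calprotectin is a pair of small calcium-binding S100 proteins that neutrophils hold in very large amounts in the cytosol and that monocytes also make. Once released, it withholds zinc and manganese from bacteria, and it signals to other cells through the receptor Tlr4 and through Ager. Its level in stool is a clinical measure of gut inflammation. Squamous and injured epithelium can also make it, so its transcripts in whole mucosa have several possible sources.

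The genes lie next to each other on mouse chromosome 3, with 0 annotated genes between them, and are read in opposite directions. Their promoters are shown because their signals were higher in treated mice together. Each runs from 250 bases before to 50 bases after the annotated start, 5′ to 3′ on the gene's own strand (RefSeq, GRCm38.p6). The S100a8 window is chr3:90668821-90669120 on the plus strand, and the S100a9 window is chr3:90695672-90695971 on the minus strand. Capitals mark matches, on either strand, to motifs of factor families described as regulators of these genes or to a TATA box.
S100a8 promoter: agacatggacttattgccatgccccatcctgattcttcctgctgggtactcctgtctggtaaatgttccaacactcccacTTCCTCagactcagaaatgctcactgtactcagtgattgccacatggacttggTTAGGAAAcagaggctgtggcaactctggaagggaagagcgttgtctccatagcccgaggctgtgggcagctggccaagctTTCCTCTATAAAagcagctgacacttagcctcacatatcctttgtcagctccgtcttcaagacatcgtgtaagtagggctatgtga
S100a9 promoter: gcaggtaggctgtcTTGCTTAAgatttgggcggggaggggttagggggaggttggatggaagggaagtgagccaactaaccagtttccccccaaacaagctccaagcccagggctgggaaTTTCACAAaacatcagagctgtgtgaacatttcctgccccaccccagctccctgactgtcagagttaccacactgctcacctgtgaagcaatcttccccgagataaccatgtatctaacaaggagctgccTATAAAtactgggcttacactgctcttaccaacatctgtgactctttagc

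The S100a8 window held 1 match to the C/EBP motif TTNNGNAA, 117 to 110 bases before the start. It also held 2 matches to the PU.1 motif GAGGAA on the opposite strand, 170 to 165 and 36 to 31 bases before the start, the second directly followed by TATAAA at 30 to 25 bases before it. The S100a9 window held 2 matches to the C/EBP motif, 236 to 229 and 130 to 123 bases before the start. Its TATAAA lay at bases 1 to 6, where base 1 is the annotated start itself, and not before the start as in S100a8. Neither window matched the STAT motif TTCNNNGAA, the AP-1 motif TGANTCA or the NF-kB motif. Among 32841 mouse promoter windows of the same length, the C/EBP motif was in 40.7%, the PU.1 motif in 28.3%, TATAAA in 13.6%, and the STAT, AP-1 and NF-kB motifs in 8.3%, 7.81% and 18.4%. No promoter binding was measured in this series.

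Signals are given as log2 of the processed spot intensity minus the array's 75th percentile, so that 0 is the 75th percentile and a negative value lies under it. That percentile was 332 to 768 intensity units on 11 arrays and 153 on that of treated WT-marrow mouse 3. The scanner rated 58.44% to 78.72% of the gene probes as well above background, depending on the array, and marked 0 of them as saturated. There were 3 slides. Slide 1 held the untreated WT-marrow mice and untreated KO-marrow mouse 1. Slide 2 held untreated KO-marrow mice 2 and 3 and mouse 3 of each treated group, and slide 3 held mice 1 and 2 of each treated group. On slide 3 each array had 491 to 767 spots marked non-uniform, and on slides 1 and 2 it had 4 to 51. All 11 measured colonic epithelium markers were well above background on all 12 arrays. Muc1 was at -2.30, -0.99 and -2.41 in treated KO-marrow mice and at -2.17, -1.47 and -3.53 in treated WT-marrow mice, which checks no label because every recipient carried the gene.

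S100a8 was close to the detection limit in untreated mucosa and bright in treated mucosa. Its signal was 775, 4508 and 2106 intensity units in treated KO-marrow mice 1 to 3 and 6560, 19638 and 1056 units in treated WT-marrow mice 1 to 3. It was 2.87, 9.27 and 11 units in untreated KO-marrow mice 1 to 3 and 5.07, 20.3 and 4.91 units in untreated WT-marrow mice 1 to 3. It cleared background well on all 6 treated arrays, but on 1 of 3 arrays in each untreated group (KO-marrow mouse 3 and WT-marrow mouse 2), so it passed the detection filter through the treated groups alone.

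After scaling, S100a8 stood at 0.67, 3.09 and 2.06 in treated KO-marrow mice, against -7.63, -5.81 and -5.68 in untreated KO-marrow mice. With WT marrow it stood at 3.54, 4.68 and 2.79 in treated mice, against -6.57, -4.03 and -7.11 in untreated mice. Every treated mouse lay above every untreated mouse of its marrow type, with a gap of 6.35 with KO marrow and of 6.81 with WT marrow. The group means were 1.94 ± 1.22 in treated and -6.37 ± 1.09 in untreated KO-marrow mice, and 3.67 ± 0.95 in treated and -5.90 ± 1.65 in untreated WT-marrow mice (SD, n = 3). The treatment change was 8.31 ± 0.85 with KO marrow (SE, 318-fold) and 9.57 ± 0.85 with WT marrow (760-fold).

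The size of that change rests on untreated signals of a few units. With a background correction that adds an offset of 50 units (normexp), the S100a8 change was 4.48 with KO marrow and 5.68 with WT marrow. S100a8 was higher in treated mice by either processing, by a fold that depends on it.

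S100a9 was measured above background in every mouse. Its signal was 4231, 18399 and 22328 units in treated KO-marrow mice and 19952, 26286 and 17070 units in treated WT-marrow mice. In untreated mice it was 68.4, 41.2 and 53.1 units with KO marrow and 83.6, 91.0 and 53.2 units with WT marrow. The untreated signals spread less than those of S100a8.

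Scaled, S100a9 stood at 3.12, 5.12 and 5.47 in treated KO-marrow mice, against -3.06, -3.66 and -3.41 in untreated KO-marrow mice. With WT marrow it stood at 5.14, 5.10 and 6.80 in treated mice, against -2.53, -1.87 and -3.68 in untreated mice. Treated and untreated mice did not overlap, with gaps of 6.18 with KO marrow and 6.96 with WT marrow. The group means were 4.57 ± 1.27 in treated and -3.38 ± 0.30 in untreated KO-marrow mice, and 5.68 ± 0.97 in treated and -2.69 ± 0.92 in untreated WT-marrow mice (SD, n = 3). The treatment change was 7.94 ± 0.63 with KO marrow (SE, 246-fold) and 8.37 ± 0.63 with WT marrow (331-fold). Treated WT-marrow mouse 3, whose array was the dimmest, had the lowest S100a9 intensity of its group before scaling and the highest value after it.

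**Figure D1:**
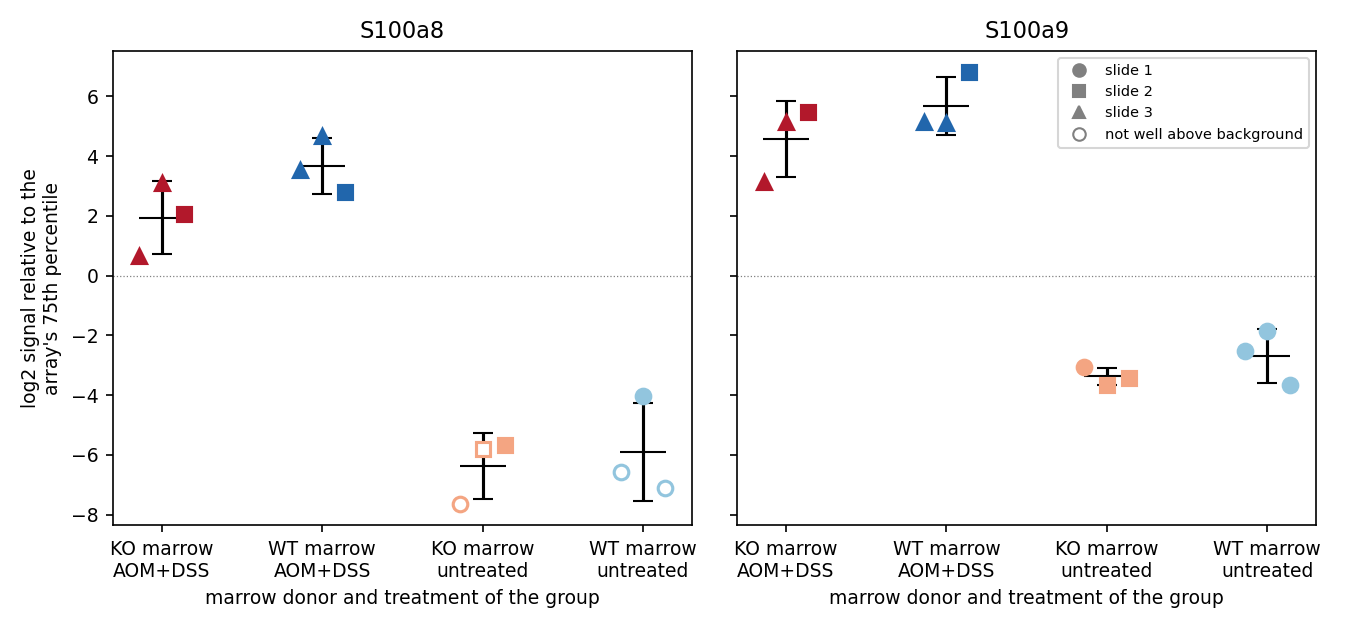
Signal of S100a8 (left) and S100a9 (right) in each mouse, as log2 relative to the array's 75th percentile (y axis), by group (x axis). Points are mice, shaped by slide and open where the probe was not well above background, and bars are the mean ± SD of 3 mice. Treated mice lie between 0.67 and 4.68 for S100a8 and between 3.12 and 6.80 for S100a9, and the highest untreated mouse lies at -1.87, for S100a9.

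Among all 23747 genes ordered by their treatment change, S100a8 was the 2nd and S100a9 the 4th highest with KO marrow, and they were the highest and the 2nd highest with WT marrow. With KO marrow, Reg3b, a bactericidal lectin, was highest at 10.22, and Spp1, osteopontin, stood between the calprotectin genes at 8.06. Spp1 was not well above background on any untreated KO-marrow array, so the size of its change and its place are uncertain. With WT marrow the next gene with a symbol was Il1b, the cytokine interleukin 1 beta, at 7.18. For scale, limma called 1.85% of genes higher and 1.31% lower in treated KO-marrow mice, and 3.6% higher and 10.2% lower in treated WT-marrow mice, at an adjusted p under 0.05. The order rests on the scale used, since S100a8 was mostly at background in untreated mice. With normexp its KO-marrow change (4.48) was under those of S100a9 (6.72) and Il1b (5.08), and with slide as a term S100a9 (9.11 with KO marrow and 9.85 with WT marrow) exceeded S100a8 (7.30 with each). The shares of called genes are given as background, since the genes were chosen for this contrast. The authors' deposited table of 2506 probes, which holds group means relative to each probe's median, lists S100a8 in its first row and S100a9 in its second. It gives S100a8 as 3.63 in treated and -4.70 in untreated KO-marrow mice, and 5.36 in treated and -4.24 in untreated WT-marrow mice. For S100a9 the authors' deposited table gives 3.95 in treated and -4.01 in untreated KO-marrow mice, and 5.07 in treated and -3.33 in untreated WT-marrow mice.

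Slide and treatment overlapped in part, and the treatment change could be taken within 1 slide for KO marrow alone. Within slide 2, treated KO-marrow mouse 3 was higher than untreated KO-marrow mice 2 and 3 by 7.80 for S100a8 and by 9.0 for S100a9, values with no error of their own because the treated arm is 1 mouse. No slide held both treated and untreated WT-marrow mice. With slide as a term of the fit, the change of S100a8 was 7.30 ± 1.05 with KO marrow and 7.30 ± 1.53 with WT marrow, and that of S100a9 was 9.11 ± 0.66 with KO marrow and 9.85 ± 0.97 with WT marrow. For WT marrow that fit links slide 1 to the other slides through untreated KO-marrow mouse 1 alone.

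**Figure D2:**
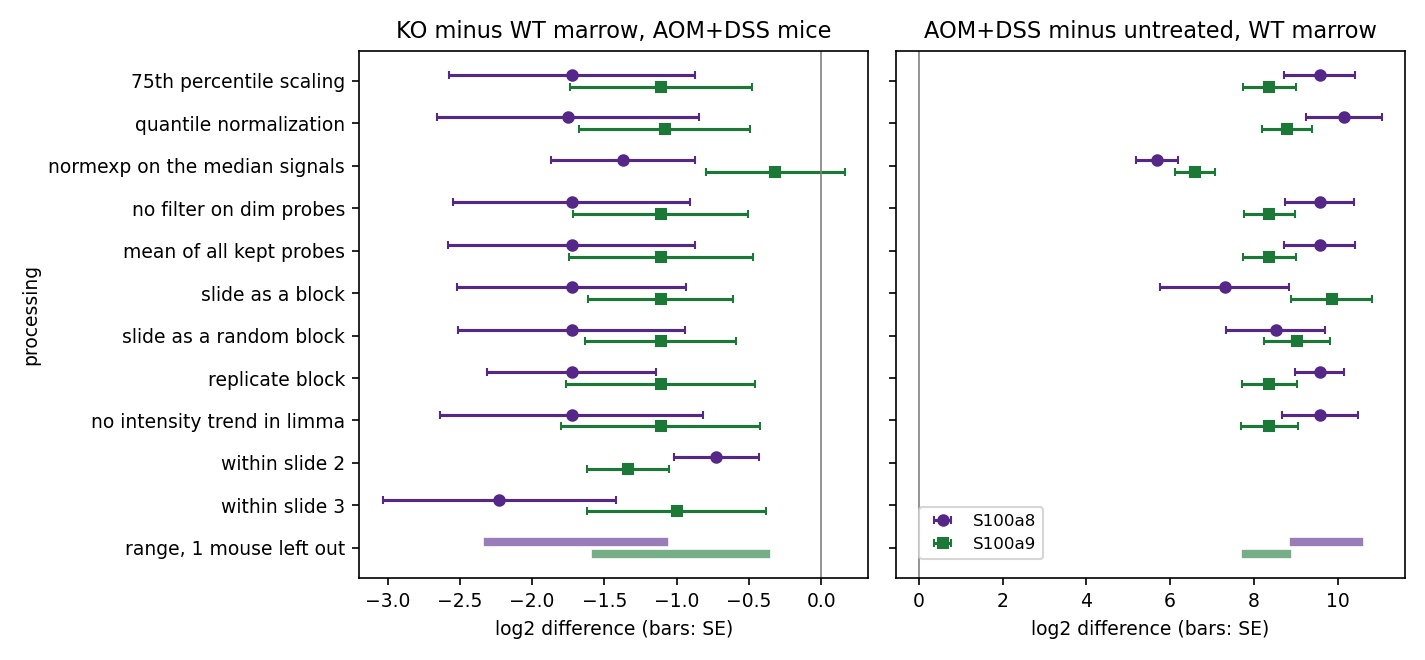
Log2 difference ± SE (x axis) of S100a8 and S100a9 under each way of processing (rows), for KO minus WT marrow in treated mice (left) and for treated minus untreated mice with WT marrow (right). Thick bars span the values with 1 mouse left out. On the left all values lie under 0, from -2.30 to -0.32, and on the right all lie from 5.68 to 10.51.

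KO and WT marrow were compared in treated mice first, where both genes had lower means with KO marrow. For S100a8 the mean was 1.94 in treated KO-marrow mice and 3.67 in treated WT-marrow mice, a difference of -1.73 ± 0.85 (SE, 95% confidence interval -3.57 to 0.11). The groups overlapped, since KO-marrow mouse 2 lay above WT-marrow mouse 3, and over all genes the difference did not pass (limma, adjusted p = 1.00). For S100a9 the mean was 4.57 in treated KO-marrow mice and 5.68 in treated WT-marrow mice, a difference of -1.11 ± 0.63 (interval -2.47 to 0.25). These groups overlapped as well, and limma gave an adjusted p of 1.00. No gene passed in this comparison (0% called, with 231 genes at an unadjusted p under 0.05). Treated mice of the same number shared a slide. The numbers are those of the sample titles, which state no pairing, and slide 3 held both mice 1 and 2 of each treated group. Within pairs of the same number the S100a8 difference was -2.87, -1.58 and -0.73 for mice 1 to 3, below 0 in 3 of 3 pairs. The fit with the replicate number as a block also tied untreated mice by number. Its interval was -3.02 to -0.43, not corrected for the number of genes (limma adjusted p = 1.00). The S100a9 difference within pairs was -2.03, 0.03 and -1.33, with a blocked interval of -2.56 to 0.34.

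KO-marrow mouse 1 had the lowest S100a8 and S100a9 of the 6 treated mice and carried much of these differences. Without it, the donor difference in treated mice was -1.09 for S100a8 and -0.39 for S100a9. Within slide 3, which held mice 1 and 2 of each treated group, the differences were -2.23 ± 0.81 and -1.0 ± 0.62. Within slide 2, with 1 mouse of each treated group, they were -0.73 and -1.33, single differences with no replicate check. The p-values measure the spread between these mice alone.

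Without treatment, S100a8 was well above background on 1 of 3 arrays in each group, so its donor difference mostly compares values at background and carries little information. The donors differed by -0.47 ± 0.85 for S100a8 (interval -2.31 to 1.37, limma adjusted p = 0.828) and by -0.69 ± 0.63 for S100a9 (interval -2.05 to 0.67, adjusted p = 0.637). The untreated groups overlapped for both genes, and limma called 0% of genes (2911 at an unadjusted p under 0.05). Donor and slide overlapped here, since all untreated WT-marrow mice were on slide 1 and untreated KO-marrow mice 2 and 3 on slide 2. Only KO-marrow mouse 1 shared a slide with the WT-marrow mice. Over the settings tried, the S100a8 difference ran from -1.73 to 0.47 and that of S100a9 from -1.18 to -0.16. WT-marrow mouse 2 was the highest untreated mouse for both genes, and without it the S100a8 difference was 0.47. The treatment change with KO marrow minus that with WT marrow was -1.26 ± 1.20 for S100a8 (interval -3.86 to 1.35, limma adjusted p = 0.90) and -0.43 ± 0.89 for S100a9 (interval -2.35 to 1.498, adjusted p = 0.955). Of all genes 0% passed that test of the difference between marrows, with 829 at an unadjusted p under 0.05.

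Within a condition, the 6 mice were too few to show whether the subunits vary together. Over the 6 treated mice, Pearson's r between S100a8 and S100a9 was 0.49 (exact two-sided permutation p = 0.30) and Spearman's rho was -0.03 (exact permutation p = 1.00). Without the 2 mice farthest from the median of S100a8, KO-marrow mouse 1 and WT-marrow mouse 2, r was -0.27 over the 4 that remained, so the positive r rested on those mice. Over the 6 untreated mice r was 0.55 (exact permutation p = 0.253) and rho 0.37 (exact permutation p = 0.497), and r was -0.14 without WT-marrow mouse 2 and KO-marrow mouse 1. There S100a8 was well above background on 2 of 6 arrays, so the untreated values say little. Adjusted over the 2 relations, the exact permutation p of r was 0.30 in each. KO-marrow mouse 1 was the lowest treated mouse and WT-marrow mouse 2 the highest untreated mouse for both genes, while among treated mice WT-marrow mouse 2 had the highest S100a8 and WT-marrow mouse 3 the highest S100a9.

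**Figure D3:**
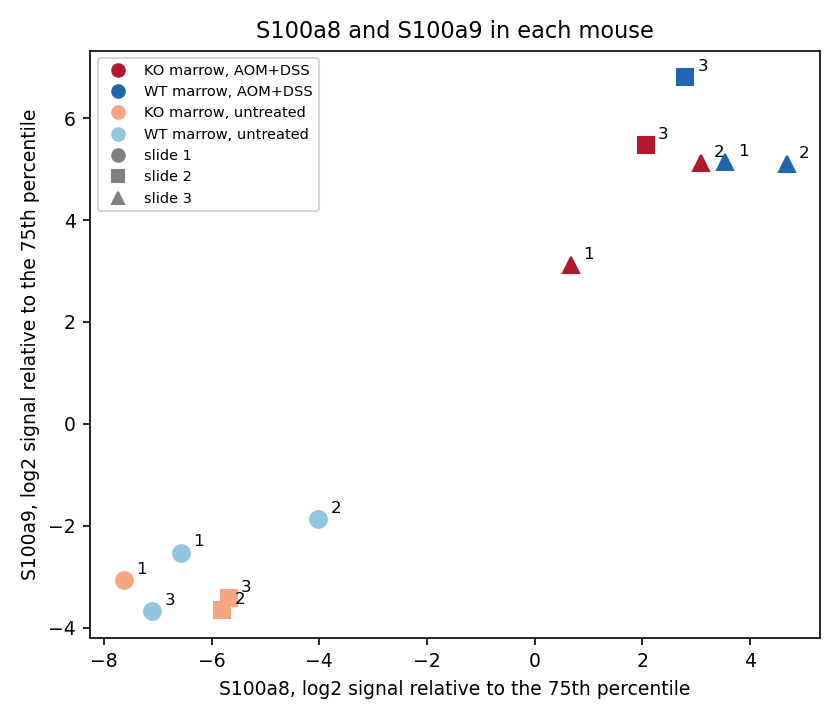
Signal of S100a9 (y axis) against S100a8 (x axis) in each of the 12 mice, both as log2 relative to the array's 75th percentile, coloured by group, shaped by slide and numbered by mouse. Treated and untreated mice form separate clouds, and within the treated cloud r was 0.49.

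Likeness to other genes was measured as the root mean square difference between centred log2 values over the arrays. Over all 12 arrays, S100a9 was the gene nearest to S100a8 of 22168 compared, at 1.15, followed by Spp1 (1.63), Il1b (1.75), Reg3g, a bactericidal lectin (1.82), and Cxcl5, a neutrophil attractant (2.02). Among genes with a symbol, the nearest to S100a9 was Il1b at 0.78, then Spp1 (1.06), S100a8 (1.15), Clec4e, a myeloid sensor of mycobacteria and cell damage (1.29), and Ccl3, a chemokine (1.33). This measure is ruled by the treatment contrast that chose the genes. Over the 6 treated arrays alone, S100a9 was 1913th nearest to S100a8 of 22222 genes, and the nearest with a symbol were Vcpkmt, Hamp, Prelp, Elp4 and Cxcr5, at 0.48 to 0.62. For S100a9 they were Tram2, Septin1, Pthlh, Nkain1 and Olfr299, at 0.19 to 0.24, and S100a8 was 13993rd. These genes have the smallest of 22222 differences over 6 arrays, and whether they are closer than chance would give was not tested.

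Il1b, the closest companion of S100a9 over all 12 arrays, showed the same division of mice. It stood at 1.85, 2.07 and 3.94 in treated KO-marrow mice and at 3.17, 2.04 and 4.44 in treated WT-marrow mice. It stood at -3.70, -5.01 and -5.21 in untreated KO-marrow mice and at -3.76, -3.90 and -4.23 in untreated WT-marrow mice. Mouse 3 was the highest of each treated group, as it was for S100a9. Mouse 3 of each treated group was on slide 2 and mice 1 and 2 were on slide 3. The array of WT-marrow mouse 3 was also the dimmest, so this order cannot be told apart from slide and scaling. Over the 6 treated arrays alone Il1b was not among the 5 genes with a symbol nearest to S100a9.

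No other S100 gene had a change near those of the calprotectin subunits. Of the 12 others measured, 1 rose and none fell in treated KO-marrow mice, and 1 rose and 3 fell in treated WT-marrow mice, with list medians of 0.04 and -0.33 beside medians over all genes of -0.11 and -0.24. S100a11, a regulator of cell growth and membrane repair, rose with either marrow. It stood at 3.38, 3.49 and 3.64 in treated KO-marrow mice, against 2.11, 1.57 and 2.03 in untreated ones, a change of 1.60 ± 0.21 (limma adjusted p = 0.00158). With WT marrow it stood at 3.67, 3.83 and 3.67 in treated mice, against 2.25, 2.46 and 2.10 in untreated ones, a change of 1.45 ± 0.21 (limma adjusted p = 0.00372). The treated and untreated values of S100a11 did not overlap with either marrow.

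The genes that fell with WT marrow were S100a5 (-3.40 ± 0.79), S100a3 (-1.82 ± 0.57) and S100a13 (-1.01 ± 0.30), with limma adjusted p values of 0.0217, 0.049 and 0.0467. Their changes with KO marrow were -0.91, -0.25 and -0.75, none past the threshold, and S100a13 had a value for 1 of 3 treated KO-marrow mice. The difference between marrows passed for none of the 12 genes. S100a5 and S100a3 lie near the calprotectin genes on chromosome 3, and their changes depended on processing: with slide as a term they were 0.23 and -0.0040, and with normexp 0.08 and -0.14. S100a4, a gene of motile and immune cells, had changes of 1.87 with KO marrow and 1.26 with WT marrow that did not pass, with a missing value in treated KO-marrow mouse 2.

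S100a14 and S100a16, of epithelial cells, were at 1.03 and 0.77 with KO marrow and 1.17 and 1.15 with WT marrow. The abundant S100a6 and the annexin partner S100a10 were at 0.07 and 0.0035 with KO marrow and at -0.01 and -0.02 with WT marrow. S100a1, S100b and S100g, the calcium-binding protein of absorptive epithelium, were at -0.27, 0.10 and -3.71 with KO marrow and -0.63, -1.15 and -1.84 with WT marrow, and none of these 7 passed. S100a1 had no value in treated WT-marrow mouse 1. S100a7a was too dim to be kept and S100z was not analysed here. Of the 20 nearest annotated genes on chromosome 3, 5 were measured, all of them S100 genes. None was called with KO marrow, and S100a3 and S100a5 were called lower with WT marrow.

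**Figure D4:**
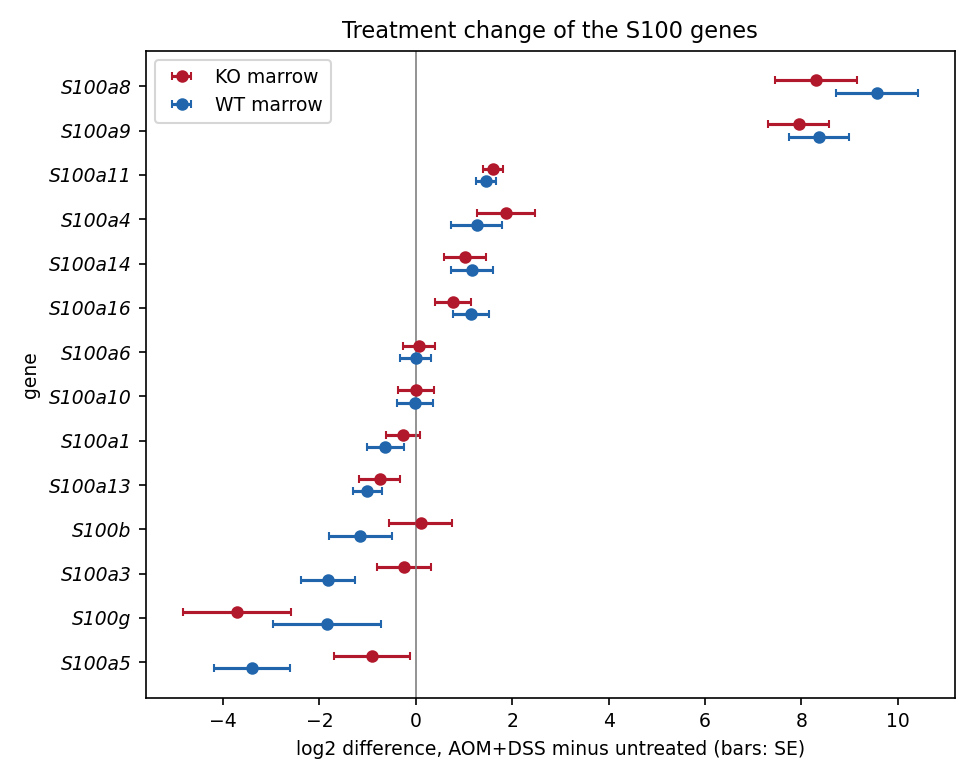
Treatment change of each measured S100 gene (rows), as log2 difference ± SE between treated and untreated mice (x axis), with KO marrow above WT marrow in each row. S100a8 and S100a9 lie at 7.94 to 9.57, and the others lie between -3.71 and 1.87.

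Of the 11 receptors and surface partners described for calprotectin, all were measured. In treated KO-marrow mice 1 rose, beside 3.15% of all genes called. In treated WT-marrow mice 2 rose and 2 fell, beside 13.8% of all genes called. Cd14, the coreceptor that presents ligands to Tlr4, stood at 3.91, 4.82 and 3.78 in treated KO-marrow mice, against 2.02, 2.34 and 2.37 in untreated ones. With WT marrow it stood at 4.18, 4.17 and 3.60 in treated mice, against 1.72, 1.71 and 1.96 in untreated ones. Treated mice lay above untreated mice throughout, by 1.93 ± 0.28 with KO marrow and 2.19 ± 0.28 with WT marrow (limma adjusted p = 0.00255 and 0.00188). Alcam, an adhesion molecule, rose with WT marrow by 1.32 ± 0.28, while Nptn, neuroplastin, fell by 1.52 and Cd33, a sialic acid receptor of myeloid cells, fell by 2.07 on the log2 scale. Nptn had no value in treated WT-marrow mouse 2, and with normexp the Cd33 change was 0.64.

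The 2 signalling receptors themselves, named here after their values were seen, did not pass. Tlr4 differed by -0.02 with KO marrow and 0.35 with WT marrow, and Ager by -0.82 with KO marrow and -2.08 with WT marrow. Of 17 measured adaptors, kinases and NF-kB genes downstream of them, none passed in treated KO-marrow mice, and 2 rose in treated WT-marrow mice. These were Myd88, the adaptor of Tlr4 (1.04 ± 0.25), and Nfkb2, an NF-kB subunit (0.90 ± 0.27), with limma adjusted p values of 0.0243 and 0.0434. They made up 11.8% of the list, beside 3.6% of all genes called higher and 10.2% called lower with WT marrow. Neither passed with normexp, where both changes were 0.64, or with slide as a term, where they were 0.39 and 0.30.

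Of the transcription factors described as regulators of S100a8 and S100a9, 11 were measured. With each marrow 1 rose (9.09%), beside 1.85% of all genes called higher with KO marrow and 3.6% with WT marrow. This was Cebpb, a C/EBP factor of myeloid and inflamed cells, at 0.47, 0.53 and 0.84 in treated KO-marrow mice, against -1.33, -0.40 and -0.77 in untreated ones. With WT marrow Cebpb stood at 0.40, 0.19 and 0.52 in treated mice, against -1.61, -1.59 and -1.55 in untreated ones. The groups did not overlap, and the changes were 1.44 ± 0.28 with KO marrow and 1.95 ± 0.28 with WT marrow (limma adjusted p = 0.0149 and 0.00372). Spi1, which encodes PU.1, was too dim to be kept, and Cebpe was not analysed here.

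Several cytokines described as inducers of the calprotectin genes were higher in treated mice. Of 9 measured, 5 rose in treated KO-marrow mice and 6 in treated WT-marrow mice, and none fell, with medians of 3.19 and 2.39. For scale, 1.85% of all genes were called higher with KO marrow and 3.6% with WT marrow. As 5 of the 9 passed the detection filter through the treated groups alone, Il1a, Il6, Il22, Ifng and Csf2, a count or median over the list is no support for its direction. Il1b changed by 7.26 ± 0.65 with KO marrow (153-fold) and 7.18 ± 0.65 with WT marrow (145-fold). Il6, of the acute-phase response, rose by 3.76 with KO marrow and 2.39 with WT marrow. Ifng, interferon gamma, rose by 3.76 with KO marrow and 3.51 with WT marrow, and Il1a, interleukin 1 alpha, by 3.19 with KO marrow and 3.50 with WT marrow. Il22, which acts on epithelium, rose at least 6.00-fold with WT marrow, where its probe was not well above background on any untreated array. With normexp, 2 of the 5 calls with KO marrow and 3 of the 6 with WT marrow still passed. Il6 and Il1a then passed with neither marrow, and Il22 did not pass with WT marrow. With slide as a term, 4 of the 5 calls with KO marrow and 2 of the 6 with WT marrow still passed.

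Among 16 measured genes that bind or carry zinc, manganese and iron, 3 rose and 1 fell in treated KO-marrow mice. In treated WT-marrow mice 3 rose and 3 fell, beside 13.8% of all genes called (3.15% with KO marrow). The genes that rose are secreted proteins that bind iron or its carriers: Hp, haptoglobin (5.74 ± 1.29 with KO marrow and 5.29 ± 1.29 with WT marrow), Ltf, lactoferrin (4.27 ± 0.94 and 4.50 ± 0.94), and Lcn2, lipocalin 2. Lcn2 was not well above background in either untreated group and was at least 10.6-fold higher with KO marrow and at least 8.65-fold higher with WT marrow. It passed the detection filter through the treated groups alone and had to be higher there. With normexp the Lcn2 change was 1.40 with KO marrow and 1.67 with WT marrow, neither past the threshold, while Hp and Ltf still passed. With slide as a term, 3 of the 4 calls of this list with KO marrow and none of the 6 with WT marrow still passed. Slc30a10, a manganese exporter of the cell membrane, fell with either marrow, by 5.72 with KO marrow and by at least 16.1-fold with WT marrow. With normexp the Slc30a10 change was -1.96 with KO marrow and 0.08 with WT marrow, neither past the threshold. Slc30a1, a zinc exporter, and Hpx, hemopexin, fell by 1.36 and 2.76 on the log2 scale with WT marrow, and Hpx was at 0.17 with normexp.

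Among subunits of the phagocyte NADPH oxidase, to which calprotectin carries arachidonic acid, Ncf4 rose with KO marrow (2.49 ± 0.44) and with WT marrow (2.30 ± 0.44). Of 8 annexins, partners of S100 proteins at membranes, Anxa2 and Anxa5 rose with KO marrow (1.06 and 1.14) and with WT marrow (0.95 and 0.96). Anxa1, an anti-inflammatory annexin, rose with WT marrow (1.23 ± 0.21), and Anxa11 fell with KO marrow by 1.26 on the log2 scale. Of all genes, 3.15% were called with KO marrow and 13.8% with WT marrow. With normexp, 1 of the 3 annexin calls with KO marrow and none of the 3 with WT marrow still passed. The same numbers passed with slide as a term.

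Over the pathway lists together, 16 of 90 measured genes passed with KO marrow and 28 with WT marrow, beside 3.15% and 13.8% of all genes. These calls include Lcn2 with each marrow, and 3 cytokine genes with KO marrow and 4 with WT marrow, that passed the detection filter through the treated groups alone. Such genes had to be higher in treated mice, so the pooled counts are no measure of an excess over all genes. With slide as a term of the fit, 12 of the 16 still passed with KO marrow and 3 of the 28 with WT marrow, while the sign held for 16 and for 27, S100a5 being the exception. Lost calls were not all smaller changes, since that of Il22 was 5.09 and that of Ifng 4.82 with slide as a term, and the fit ties slide 1 to the others through 1 mouse. In the donor comparisons none of the members of these lists passed.

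In whole mucosa, fewer cells of a type and less RNA per cell cannot be told apart, so the levels of cell type markers are given beside those of the calprotectin genes. Of 24 neutrophil markers other than S100a8 and S100a9, 19 were measured. In treated KO-marrow mice 8 rose and none fell, and in treated WT-marrow mice 7 rose and 1 fell. Over all genes, limma called 1.85% higher and 1.31% lower with KO marrow, and 3.6% higher and 10.2% lower with WT marrow. The marker that fell was Ctsg, a granule protease (-2.34 ± 0.56, and 0.08 with slide as a term), named after its value was seen. With slide as a term, all 8 calls with KO marrow and 3 of the 8 with WT marrow still passed. With normexp, 4 of the 8 with KO marrow and 5 of the 8 with WT marrow still passed. Retnlg, a secreted protein of mature neutrophils, was at least 48.7-fold higher with KO marrow and at least 36.8-fold with WT marrow. Csf3r, the receptor for the neutrophil growth factor, was at least 25.3-fold higher with KO marrow and at least 18.1-fold with WT marrow. Clec4e was 51.9-fold higher with KO marrow and at least 59.6-fold with WT marrow. That bound is no lower than the fitted change itself (5.90 on the log2 scale). With normexp the Clec4e change was 2.77 with KO marrow and 2.90 with WT marrow, both past the threshold. Clec4d, a lectin of the same family, was 35.7-fold higher with KO marrow and 43.0-fold with WT marrow.

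Elane, Camp and Ngp were too dim to be kept in any group, and Ly6g and Stfa1 were not analysed here. The summed neutrophil signal, in multiples of the array's 75th percentile, was 6.67 to 17.0 in treated KO-marrow mice and 11.7 to 16.3 in treated WT-marrow mice. It was 3.29 to 5.68 in untreated KO-marrow mice and 3.40 to 5.08 in untreated WT-marrow mice. However, 8 of the 19 markers, with 7 of the 8 rises with KO marrow and 6 of the 7 with WT marrow, passed the detection filter through the treated groups alone and had to be higher there. Over the other 11, treated and untreated mice overlapped, at 4.67 to 15.1 in treated KO-marrow mice, 3.21 to 14.4 in treated WT-marrow mice, 3.15 to 5.604 in untreated KO-marrow mice and 3.20 to 4.74 in untreated WT-marrow mice. Itgam, an integrin subunit of myeloid cells, was the 1 rise among those 11, by 3.05 ± 0.47 with KO marrow and 2.36 ± 0.47 with WT marrow (named after its values were seen).

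KO-marrow mouse 1, lowest of the treated mice for S100a8 and S100a9, was also lowest for the neutrophil list. The mean log2 signal of that list was -3.24, -2.57 and -1.36 in treated KO-marrow mice 1 to 3 and -2.58, -2.66 and -1.50 in treated WT-marrow mice 1 to 3. The part of neutrophil number in the calprotectin values was not tested. In treated mice none of the 19 neutrophil markers differed between donors (limma), and their median donor difference was -0.03. In untreated mice none differed either, 2 of the 19 differences were positive, and the median was -0.69, beside -0.18 over all genes. Untreated KO-marrow mice 2 and 3 were on another slide than the untreated WT-marrow mice. The array of KO-marrow mouse 2 had the fewest probes well above background (58.44%). Donor was thus not separated from slide and array quality in the untreated mice.

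Of 11 measured monocyte and macrophage markers, 5 rose with each marrow and none fell. However, 2 of the 11, Ccr2 and Msr1, passed the detection filter through the treated groups alone and had to be higher there. They gave 1 of the 5 rises with each marrow, Ccr2 with KO marrow and Msr1 with WT marrow. Of the other 9 markers, 4 rose with each marrow. Of all genes, 1.85% were called higher with KO marrow and 3.6% with WT marrow. With slide as a term, 4 of the 5 marker calls with KO marrow and 1 with WT marrow, Mpeg1, still passed. Mpeg1, a pore-forming protein of macrophages, rose by 3.22 ± 0.31 with KO marrow and 2.57 ± 0.31 with WT marrow, and C1qc, a complement subunit, by 3.11 with KO marrow and 1.99 with WT marrow. Their summed signal was 8.71 to 10.71 in treated KO-marrow mice and 6.10 to 9.70 in treated WT-marrow mice, against 1.45 to 3.17 and 2.22 to 5.75 in untreated mice with KO and WT marrow. Between donors in treated mice the 11 differences ran from 0.01 to 0.56, and none passed.

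Squamous epithelium was examined because it too can make calprotectin. Of 15 markers 10 were measured, and Ly6d, a surface protein also found on lymphoid cells, rose by 4.82 ± 0.71 with KO marrow and 4.19 ± 0.71 with WT marrow. Lor, loricrin, fell with WT marrow by 1.35 on the log2 scale (0.12 with normexp). The keratins measured did not pass, and Krt6a, Krt1, Ivl, Dsg3 and Trp63 were too dim to be kept. The summed squamous signal was 10.9 to 14.4 in treated KO-marrow mice and 16.9 to 18.0 in treated WT-marrow mice, against 2.50 to 7.09 and 5.52 to 7.77 in untreated mice with KO and WT marrow. The mean log2 signal of the list had no such order, at -2.80 to -2.33 in treated KO-marrow mice, -3.02 to -1.78 in treated WT-marrow mice, -3.44 to -1.41 in untreated KO-marrow mice and -1.85 to -1.56 in untreated WT-marrow mice.

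Of 11 measured colonic epithelium markers, 1 (9.09%) fell with each marrow. Of all genes, 1.31% were called lower with KO marrow and 10.2% with WT marrow. The marker that fell was Slc26a3, the chloride exchanger of surface colonocytes (-3.04 ± 0.37 with KO marrow and -2.38 ± 0.37 with WT marrow). Of 3 red blood cell genes, none passed with KO marrow, and Hba-a1, a globin, and Slc4a1, an anion exchanger, fell with WT marrow, by 2.54 and 2.17 on the log2 scale. With slide as a term the Slc4a1 change was 0.11. The part of these cell types in the calprotectin values was not tested.

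**Figure D5:**
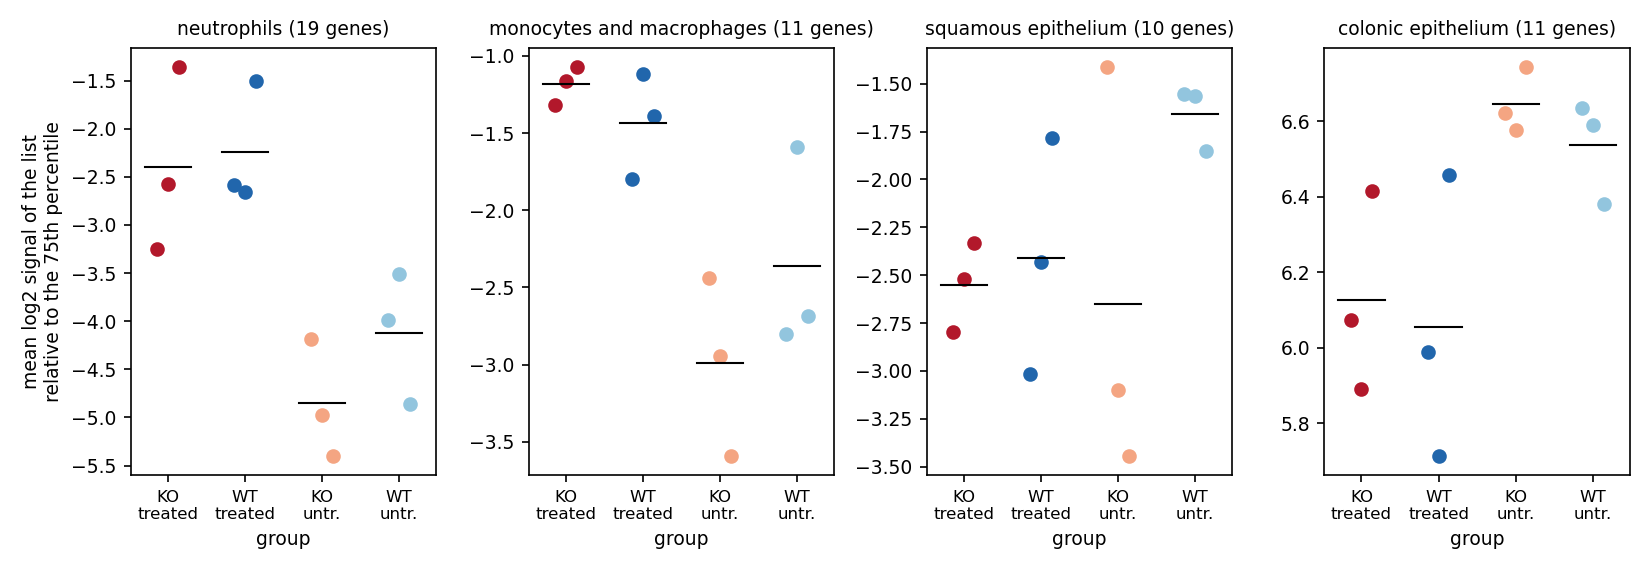
Mean log2 signal of 4 marker lists in each mouse (y axis, relative to the array's 75th percentile, with its own range in each panel) by group (x axis). Points are mice, lines are group means, and untr. means untreated. The 6 treated mice lie above the untreated mice for neutrophils, a list in which 8 of 19 genes were kept through the treated groups alone, and the treated groups overlap each other.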

How the data were processed

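RNA was measured on 12 single-colour Agilent mouse arrays (design 014868), 1 mouse each. The authors deposited Feature Extraction 10.7.3.1 output, and per the file headers that software had already subtracted background from the linear intensity values. A deposited table holds the authors' log2 group means of 2506 probes, which matched array values centred on each probe's median (r of 0.995 to 0.998).

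In R 4.3.3 with the package data.table (version 1.17.8), log2 processed signals were scaled to each array's 75th percentile. Control and outlier spots were left out. Of 41174 probes, 30221 were well above background on all 3 arrays of a group, and the brightest kept probe stood for each of 23747 genes. Accessions were matched to RefSeq symbols (GRCm38.p6), which named 24375 probes and left 16799 with the files' names. limma 3.58.1 fitted a mean per group with an intensity trend (8 residual and 4.9 prior degrees of freedom) and Benjamini-Hochberg adjustment over all genes, with a threshold of 0.05. A fold against a group with no array well above background is given as at least the fold over a floor, which on each dim array was the dimmest signal well above background or, where brighter, that of the probe itself. The number of arrays limits the precision.

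The genes and lists were chosen with earlier results of these data known. Named genes were the members, all S100 genes, up to 4 called genes per list and marrow with the largest changes, Muc1 and the 5 nearest genes by likeness. Same-numbered treated mice deviated together between marrows (r of 0.418, 0.307 and 0.512), so a fit with the replicate number as a block was made. Their slides were shared as well, mice 1 and 2 on slide 3 and mouse 3 on slide 2. In the other comparisons at least 1 pair was under 0. Other scalings, slide terms, within-slide fits and fits with each mouse left out were tried. The tests were tried on simulated data first. The result for 1 listed gene is not reported here.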

Additional observations from a re-analysis of the deposited data

How the results depend on the processing

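The treatment changes of S100a8 and S100a9 were positive under every alternative run, at 4.48 to 8.95 and 6.72 to 9.11 with KO marrow and at 5.68 to 10.51 and 6.59 to 9.85 with WT marrow. Those that moved by more than the spread between mice were, with normexp, 4.48 and 6.72 with KO marrow and 5.68 and 6.59 with WT marrow. With slide as a block they were 7.30 (S100a8, WT marrow), 9.11 and 9.85 (S100a9, KO and WT marrow), and within slide 2 9.0 (S100a9, KO marrow). Normexp was run on median signals, an alternative added after seeing the data, because the planned mean signals were not used here. It raised the median change of all genes to 0.23 with KO marrow and 0.39 with WT marrow, and the slide block to 0.44 and 0.47. In treated mice the donor difference was negative in all 22 settings for each gene. Adjusted p values (limma) ran from 0.117 to 1.00 for S100a8 and from 0.0199 to 1.00 for S100a9. The lowest of each came from slide 2 (-1.33 for S100a9), which sets 1 array against 1 with the spread of a single untreated pair and supports no donor difference. Without treatment, the S100a8 donor difference was 0.42 with quantile normalization and -1.07 to 0.47 with 1 mouse left out. The difference between marrows in the treatment change was 0.0044 for S100a8 with slide as a block, 0.13 for S100a9 with normexp and -0.87 to 0.30 for S100a9 with 1 mouse left out. None of these reversals passed a test, and their cause was not tested. With the replicate block, the S100a8 donor difference in treated mice was -1.73 ± 0.58 (limma adjusted p = 1.00), and the block changed no call of the members. Of the pathway list genes, 28 passed with WT marrow, against 13 with normexp, 4 with slide as a block, 5 with slide as a random block and 9 to 33 with 1 mouse left out (9 without untreated WT-marrow mouse 1 or 2, 10 and 14 without treated WT-marrow mouse 1 and 2, 18 without untreated WT-marrow mouse 3). With KO marrow 16 passed, against 10 with no intensity trend and 5 to 21 with 1 mouse left out (5 and 10 without untreated KO-marrow mouse 3 and 2, 10 without treated KO-marrow mouse 1, 8 without mouse 2 or 3). Signal over background limits S100a8 in untreated mice.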
